A study of Mus musculus with 9 samples.

Results

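The 10 genes described here were selected by symbol from the 19435 genes of the deposited table: the transcription factors Snai1, Snai2, Twist1, Twist2, Zeb1, Zeb2 and Prrx1, the cadherins Cdh2 and Cdh11, and the intermediate filament gene Vim. All 10 of 10 symbols were found. Messenger RNA had been sequenced from 9 libraries of mouse oviduct tissue, with no treatment. The 4 tumors were Dicer1ko/D1693N, so D1693N was their remaining Dicer1 allele. Oviducts 1 to 3 were normal tissue of genotype Dicer1+/D1693N, and oviducts 4 and 5 were normal tissue of genotype Dicer1+/+. The D1693N allele was therefore carried by the tumors and by 3 of the 5 controls, and no Dicer1ko oviduct without a tumor was among the libraries. Ages, the means by which the ko allele was made and whether each library came from a separate animal are not given in the labels, so p-values measure the spread between these samples, which may be technical.

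Epithelial to mesenchymal transition (EMT) is the program by which epithelial cells lose their junctions and polarity and take on the shape and motility of mesenchymal cells. The Snail, Twist and Zeb factors drive it in part by binding E-box motifs in the promoter of Cdh1, which encodes E-cadherin, while N-cadherin (Cdh2), cadherin-11 (Cdh11) and vimentin (Vim) are its classical mesenchymal products. The same genes are also a normal feature of connective tissue cells, and an oviduct consists of an epithelium of secretory and ciliated cells over stroma, muscle and an outer mesothelium. DICER1 cuts miRNA precursors, and its RNase IIIb domain, which holds D1693, frees the strand from the 5′ arm. Several EMT factors are known miRNA targets: the miR-200 family represses Zeb1 and Zeb2, whose proteins in turn repress the miR-200 genes, and miR-34 represses Snai1.

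The miRNA sequences are shown because DICER1 makes miRNAs and these are known to target some of the 10 genes. No miRNA was measured in these libraries, so a part of miRNAs in the levels was not tested, and the miR-200 strands shown come from the 3′ arm. Mature mouse sequences from RefSeq (GRCm38.p6) are written 5′ to 3′ with the seed, bases 2 to 8, in capitals. The first pair share 1 seed, and miR-200a differs from them in that seed.
miR-200b-3p: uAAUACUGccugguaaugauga
miR-200c-3p: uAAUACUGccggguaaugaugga
miR-200a-3p: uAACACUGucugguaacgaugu
miR-34a-5p: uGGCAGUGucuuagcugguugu

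The 3′ untranslated region (UTR) of Zeb2, 4941 bases on the minus strand, held 5 exact matches to the miR-200b and miR-200c seed, spelled CAGTATT. Such a match was present in 13.5% of 20676 mouse 3′ UTRs, and 3 of 1094 UTRs of similar length (0.274%) held at least as many as Zeb2. They are given with 10 bases on either side (GRCm38, minus strand), the match in capitals.
Zeb2 chr2:44988164-44988190: taccatacatCAGTATTttattattat
Zeb2 chr2:44988099-44988125: tacagtgcatCAGTATTacgattcctc
Zeb2 chr2:44987737-44987763: gcacccgtgtCAGTATTagacgactag
Zeb2 chr2:44987652-44987678: ttaattttgtCAGTATTacaccaaact
Zeb2 chr2:44987518-44987544: ctgtagtgtaCAGTATTatagttcttc
The 3′ UTR of Zeb1, 2401 bases long, also held 5 matches, and each Zeb UTR held 4 matches to the miR-200a seed, CAGTGTT, found in 17.4% of all UTRs. At least as many miR-200a matches were held by 0.174% of UTRs similar in length to that of Zeb1, and by 1.74% for Zeb2. Snai1, Snai2 and Cdh11 held 1 miR-200b match each, while Twist1, Twist2, Prrx1, Cdh2 and Vim held 0. At least 1 such match was held by 6.91%, 12.4% and 22.8% of UTRs similar in length to those of Snai1, Snai2 and Cdh11. Snai1, with a UTR of 731 bases on the plus strand, held 1 match to miR-34a, CACTGCC, found in 14.5% of all UTRs and in 9.34% of UTRs of similar length.
Snai1 miR-34a chr2:167542127-167542153: ccctcctcctCACTGCCaggactcctt
The RefSeq promoter of Snai1 held 1 copy of the motif CAGGTG, which the SNAIL protein binds, here read on the opposite strand as CACCTG, 126 bases before the start site.
Snai1 promoter chr2:167538057-167538086: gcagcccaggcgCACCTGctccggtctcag
On either strand this motif occurs in 20.2% of 32851 mouse promoters of 300 bases. The promoters of Twist1, Twist2, Prrx1, Vim and Zeb2 in the same source held 0 copies. These matches describe letters in the sequence and are not evidence of binding.

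Levels are given as normalized counts, which are reads divided by the size factor of each library. A log2 change is the mean deposited log2 value of the tumors less that of the oviducts, given ± SE. A gene was called when limma's moderated test gave a Benjamini-Hochberg adjusted p below 0.05 over all 19435 genes and the log2 change was at least 1 in size. The tumor libraries held 8732190 to 11267144 reads and the oviduct libraries 8504993 to 12526078. Dicer1 itself was at 1282.9, 741.5, 1379.2 and 576.3 normalized counts in tumors 1 to 4, and at 903.9 to 1236.8 in the oviducts, with a change of -0.21 ± 0.25 (adjusted p = 0.568). A count per gene does not show which part of Dicer1 was deleted, so it does not check the genotype labels. Foxj1, the ciliated cell regulator, was at 12.6 to 243.8 normalized counts in the tumors and 4183.7 to 6649.9 in the oviducts. Ovgp1, the oviduct secretory glycoprotein, was at 111.5 to 11678.2 in the tumors and 78143.7 to 150619.1 in the oviducts. Both were thus lower in every tumor than in every oviduct, but Ovgp1 was still at 8061.2 or more in tumors 1 to 3. The other secretory markers did not all follow. Of the 9 measured 2 were called lower, Ovgp1 among them, and 1 higher, beside 12.1% and 6.53% of all genes. The marker that rose was Wfdc2 (1.64 ± 0.28, limma adjusted p = 0.00147), and Pax8, Krt7, Epcam, Cd24a, Msln and Lcn2 were not called.

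Of the 10 genes 6 rose in the tumors against all 5 oviducts: Cdh11, Snai1, Snai2, Prrx1, Twist2 and Twist1. Among all genes tested 6.53% were called higher and 12.1% lower. None of the 10 fell, by limma or by limma-voom, and none had a negative change at an unadjusted p below 0.05, a level passed by 42.1% of all genes in either direction. By the adjusted p alone the same count of 6 passed, beside 12.6% of all genes higher and 18.5% lower. The median change of the 10 genes was 1.5 and that of all genes -0.05. For 4 of the 10, Snai1, Snai2, Twist1 and Cdh11, every tumor lay above every oviduct, against 10.8% of all genes. The genes were picked as a known group with earlier results of these libraries in view, so the counts describe them and do not test them. In bulk tissue more cells of a type and more RNA per cell cannot be told apart.

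**Figure D1:**
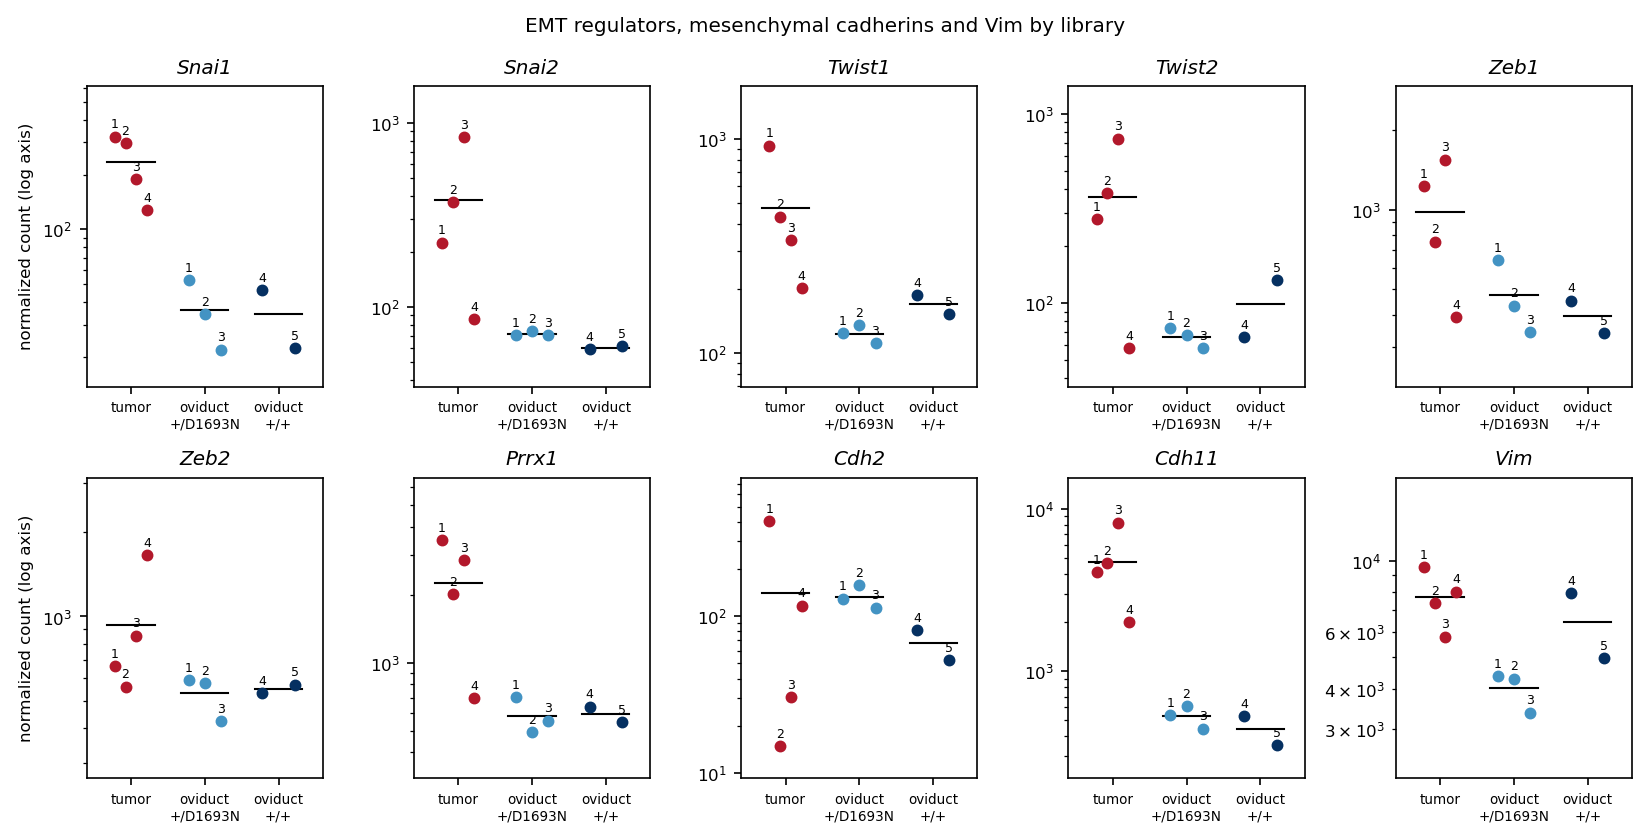
Normalized counts (log axis) of the 10 genes in each library, with the 4 tumors in red, the 3 Dicer1+/D1693N oviducts in light blue and the 2 Dicer1+/+ oviducts in dark blue. Digits number the libraries and black lines are group means; Cdh11 is far above the oviducts in all 4 tumors, whereas Cdh2 spans 14.8 to 403.0 among the tumors.

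The Snail family are zinc finger repressors of Cdh1. Snai1 (chromosome 2, 167538195 to 167542814, plus strand) was at 322.4, 298.7, 188.0 and 127.2 normalized counts in tumors 1 to 4. In oviducts 1 to 5 it was at 52.5, 34.4, 21.9, 46.4 and 22.3. The lowest tumor was more than double the highest oviduct, with no overlap between the groups. The ratio of the group means was 6.59 and the change 2.18 ± 0.31 (limma, adjusted p = 0.000479).

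Snai2 (Slug; chromosome 16, 14705852 to 14709385, plus strand), a close relative of Snai1 with a role in neural crest and mesoderm, was at 223.4, 372.5, 836.5 and 86.2 normalized counts in tumors 1 to 4. In oviducts 1 to 5 it was at 70.3, 74.1, 70.6, 59.0 and 61.4, a narrow range. All tumors lay above all oviducts, but tumor 4 did so only slightly and tumor 3 stood far above the rest. The change was 1.81 ± 0.48 (limma, adjusted p = 0.0163), and without tumor 3 it was 1.32 ± 0.36 (adjusted p = 0.0214). Snai3, the other member of the family, was near the floor, with at most 21 normalized counts in a tumor and 6.0 in an oviduct (change 0.43 ± 0.43, adjusted p = 0.487).

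The Twist factors are basic helix-loop-helix proteins of mesoderm and cranial mesenchyme. Twist1 (chromosome 12, 33957671 to 33959829, plus strand) was at 928.4, 432.7, 335.5 and 200.9 normalized counts in tumors 1 to 4. Oviducts 1 to 5 held 123.9, 134.8, 111.4, 186.3 and 151.8. No value overlapped, though tumor 4 stood just above oviduct 4. The change was 1.42 ± 0.36 (limma, adjusted p = 0.0126), and 1.04 ± 0.26 without tumor 1 (adjusted p = 0.0144).

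Twist2 (chromosome 1, 91801461 to 91848028, plus strand) was at 276.8, 380.4, 736.3 and 57.8 normalized counts in tumors 1 to 4. It was at 73.7, 67.4, 57.7, 66.0 and 131.7 in oviducts 1 to 5. Tumors 1 to 3 exceeded every oviduct and tumor 4 lay at the bottom of the oviduct range. The change, 1.59 ± 0.54, only just passed the test (limma, adjusted p = 0.0487). It did not pass without any 1 of the 5 oviducts or of tumors 1, 2 and 3 (adjusted p 0.0538 to 0.115), while without tumor 4 it was 2.22 ± 0.33 (adjusted p = 0.000654). The annotation places the antisense gene Gm29100 over 1477 of the exon bases of Twist2, which is 46.53% of them. Strandedness is not given in the sources used here, so reads of the 2 genes cannot be told apart. Gm29100 was itself called higher in the tumors, with a change of 1.54 ± 0.47 (adjusted p = 0.0309), a call lost without oviduct 1, 2, 3 or 4 or tumor 1, 2 or 3.

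Zeb1 and Zeb2 are zinc finger and homeodomain repressors of epithelial genes and the main targets of the miR-200 family. Zeb1 (chromosome 18, 5591860 to 5775467, plus strand) was at 1228.5, 755.2, 1546.9 and 390.2 normalized counts in tumors 1 to 4. In oviducts 1 to 5 it was at 644.1, 432.0, 342.3, 451.2 and 340.5. Tumors 1 to 3 lay above every oviduct and tumor 4 within the oviduct range. The change of 0.98 ± 0.36 did not pass (limma, adjusted p = 0.0607). Without tumor 4 it was 1.35 ± 0.26 and did (adjusted p = 0.00329).

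Zeb2 (chromosome 2, 44983632 to 45117395, minus strand) was at 662.3, 561.0, 854.5 and 1653.2 normalized counts in tumors 1 to 4. In oviducts 1 to 5 it was at 591.6, 578.7, 421.9, 532.1 and 570.5. The order of the tumors was unlike that of Zeb1: tumor 4, the lowest for Zeb1, was the highest for Zeb2, and tumor 2 lay inside the oviduct range. The change of 0.65 ± 0.27 did not pass (limma, adjusted p = 0.0966), and without tumor 4 it was 0.34 ± 0.17 (adjusted p = 0.158). Without tumor 2 the p threshold was passed but not the size (0.85, adjusted p = 0.0437). Zeb2 is also a factor of macrophages in normal tissue. The summed normalized count of 11 macrophage genes was 19825, 33139, 7018 and 53237 in tumors 1 to 4 and 4257 to 7366 in the oviducts. Lyz2 alone was at 9786.1, 15627.8, 3548.7 and 27865.6 in the tumors. Of these 11 genes 8 (72.7%) were called higher and none lower, beside 6.53% and 12.1% of all genes. Mrc1, Ptprc (0.53 ± 0.53, limma adjusted p = 0.483) and Csf1r (0.88 ± 0.45, limma adjusted p = 0.166) were not called. Tumor 4 was highest for Zeb2 and for the macrophage sum, but tumor 2, second in that sum, had the least Zeb2. The part of macrophages in the Zeb2 level was not tested. The antisense gene Zeb2os shares 653 exon bases with Zeb2, 3.27% of its exons, and had a change of 0.65 ± 0.23 (adjusted p = 0.0512).

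Prrx1 (chromosome 1, 163245119 to 163313710, minus strand), a homeobox gene of limb, craniofacial and connective tissue mesenchyme, was at 3469.9, 2010.0, 2840.6 and 694.1 normalized counts in tumors 1 to 4. In oviducts 1 to 5 it was at 704.3, 491.9, 552.3, 639.0 and 544.8. Tumors 1 to 3 were well above the oviducts, and tumor 4 lay just under oviduct 1. The change was 1.69 ± 0.39 (limma, adjusted p = 0.008), and 2.18 ± 0.19 without tumor 4 (adjusted p = 2.65e-05). Its paralog Prrx2 had a change of 0.14 ± 0.36 (adjusted p = 0.799).

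Cdh11 (chromosome 8, 102632095 to 102785642, minus strand), the cadherin of osteoblasts and other mesenchymal cells, had the largest change of the 10 genes. It was at 4068.1, 4627.5, 8206.4 and 2007.6 normalized counts in tumors 1 to 4. Oviducts 1 to 5 held 538.0, 610.2, 444.8, 530.6 and 351.7. Even tumor 4, the lowest, was more than triple the highest oviduct. The means were 4727 ± 2578 in the tumors and 495 ± 99.3 in the oviducts (SD, n = 4 and 5), a ratio of 9.55, and the change was 3.05 ± 0.34 (limma, adjusted p = 8.75e-05). Leaving out any library gave 2.73 to 3.41.

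Cdh2 (chromosome 18, 16588877 to 16809246, minus strand), N-cadherin of neural tissue, heart muscle and many carcinomas after EMT, did not follow Cdh11. It was at 403.0, 14.8, 30.4 and 116.7 normalized counts in tumors 1 to 4. In oviducts 1 to 5 it was at 129.5, 157.2, 113.4, 81.7 and 52.5. Tumor 1 stood above every oviduct, tumors 2 and 3 below every oviduct, and tumor 4 among them. The change was -0.30 ± 0.65 (limma, adjusted p = 0.764), and it was positive without tumor 2 (0.23), without tumor 3 (0.03) or against the Dicer1+/+ oviducts alone (0.20). Tumor 1 also had the highest summed count of 10 smooth muscle genes, 72764 against 23280, 4221 and 13089 in tumors 2 to 4 and 34744 to 77562 in the oviducts. It had the highest sum of 6 red cell genes too, 49414 against 1032 to 1565 in the other tumors and 891 to 1698 in the oviducts. The part of either in the Cdh2 level was not tested.

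Vim (chromosome 2, 13573927 to 13582826, plus strand), the filament protein of mesenchymal, endothelial and white blood cells, was at 9539.5, 7380.1, 5799.3 and 7995.7 normalized counts in tumors 1 to 4. It was at 4371.2, 4291.3, 3366.2, 7919.3 and 4978.2 in oviducts 1 to 5. The tumors were the higher group, but oviduct 4 lay among them. The change was 0.66 ± 0.25 (limma, adjusted p = 0.0688). Without oviduct 4 it was 0.84 (adjusted p = 0.0156) and without tumor 3 it was 0.79 (adjusted p = 0.0423), both past the p threshold and under the size required. The summed count of 11 fibroblast genes was 133954 to 142487 in the tumors, 52440 in oviduct 4 and 26219 to 34669 in the other oviducts. Oviduct 4 was thus the highest oviduct for this sum too. In the tumors most of the sum came from Col1a1 (32945.7 to 47255.8), Col1a2 (33720.2 to 44036.0) and Col3a1 (32849.4 to 43884.3). The fibroblast genes Dcn, Lum, Dpt, Pi16, Fap and Thy1 were not called. The part of fibroblasts in the Vim level was not tested.

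The contrast with each oviduct genotype asks whether the tumors differ from tissue that already carries D1693N and from tissue with intact Dicer1. These contrasts share the 4 tumors. Against the 3 Dicer1+/D1693N oviducts, 4 of the 10 genes were called higher and 0 lower, beside 5.17% and 11.4% of all genes: Cdh11 (2.95 ± 0.40, adjusted p = 0.000882), Snai1 (2.16 ± 0.37, adjusted p = 0.00335), Prrx1 (1.71 ± 0.47, adjusted p = 0.0285) and Twist1 (1.58 ± 0.42, adjusted p = 0.0241), all by limma. Snai2 and Twist2 had changes of 1.74 ± 0.58 and 1.75 ± 0.65 with adjusted p of 0.0579 and 0.0817. Vim had an adjusted p of 0.0227 with a change of 0.92 ± 0.24, under the size required. Against the 2 Dicer1+/+ oviducts, 2 of the 10 were called higher and 0 lower, beside 4.07% and 9.74% of all genes: Cdh11 (3.22 ± 0.45, adjusted p = 0.00155) and Snai1 (2.21 ± 0.42, adjusted p = 0.00761). Prrx1 was at 1.67 ± 0.53 and Snai2 at 1.93 ± 0.66, with adjusted p of 0.0618 and 0.0769. Vim was at 0.27 ± 0.27 (adjusted p = 0.545).

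Between the oviduct genotypes, Dicer1+/D1693N against Dicer1+/+, none of the 10 was called by limma. All 10 adjusted p-values were 1. Of all genes 1 was called higher (0.00515%) and 3 lower (0.0154%), with 2.75% of genes at an unadjusted p below 0.05. A model of the 5 oviducts alone likewise called 0 of the 10 genes. Vim was the only one of the 10 with an unadjusted p below 0.05, at 0.0472, with a mean of 4010 ± 559 in the Dicer1+/D1693N oviducts and 6449 ± 2080 in the Dicer1+/+ oviducts (SD, n = 3 and 2). Its change was -0.65 ± 0.29, and Cdh2 had the largest change in size, 0.83 ± 0.90.

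**Figure D2:**
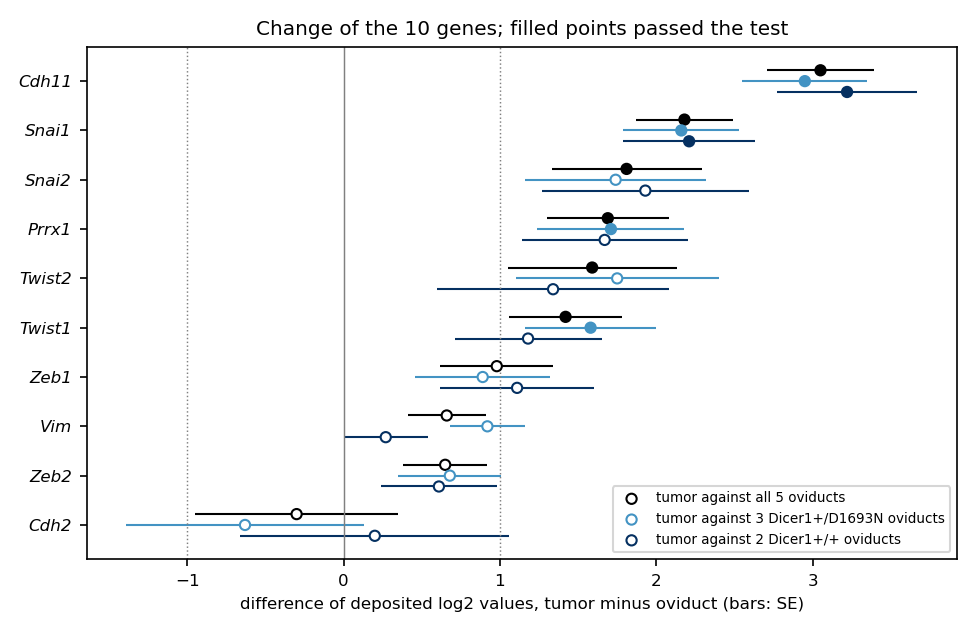
Log2 change of the 10 genes, tumor minus oviduct, with SE bars, against all 5 oviducts (black), the 3 Dicer1+/D1693N oviducts (light blue) and the 2 Dicer1+/+ oviducts (dark blue). Filled points were called; Cdh11 and Snai1 are filled in all 3 contrasts, which share the 4 tumors, and dotted lines mark a log2 change of 1 in size.

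To compare levels between genes, normalized counts were divided by the length of the longest annotated coding transcript in kb. On this scale the tumors held, per kb, 3500 ± 706 of Vim, 837 ± 457 of Cdh11, 345 ± 184 of Prrx1, 291 ± 195 of Twist1 and 188 ± 161 of Snai2 (mean ± SD, n = 4). Next came Zeb1 at 169 ± 88, Snai1 at 144 ± 56.9, Twist2 at 144 ± 112, Zeb2 at 102 ± 54.3 and Cdh2 at 29.2 ± 37.2 per kb. From Prrx1 down to Zeb2 each gene lay within the larger SD of its neighbour, so the group means do not resolve the order of neighbours in the tumors. This SD does not use the fact that all genes were measured in the same libraries. Within every tumor Prrx1 lay above Snai2, Zeb1, Snai1 and Twist2, but not above Twist1 in tumors 1 and 4 or Zeb2 in tumor 4. In the oviducts Vim also led, with 2270 ± 793 per kb (n = 5). Prrx1, Cdh11, Twist1, Zeb1 and Zeb2 followed at 89.9 ± 12.9, 87.7 ± 17.6, 87.0 ± 17.8, 76.2 ± 21.3 and 59.1 ± 7.57 per kb. Snai2, Twist2, Cdh2 and Snai1 formed a lower group, at 33.2 ± 3.24, 31.4 ± 11.8, 22.1 ± 8.44 and 21.9 ± 8.54 per kb. Cdh11 thus stood with Prrx1 and Twist1 in the oviducts and above Prrx1 by more than the larger SD in the tumors, and Snai1 was in the lower group only in the oviducts.

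The 7 transcription factors were also set against their own sum per kb, which was 1810, 1280, 1820 and 622 in tumors 1 to 4 and 330 to 456 in the oviducts. Snai1 took 11%, 14.3%, 6.36% and 12.6% of it in tumors 1 to 4, and 3.49% to 7.09% in the oviducts. Zeb1 took 10.1% to 14.6% in the tumors and 14.9% to 24.3% in the oviducts, the lower group for Zeb1 being the tumors. Zeb2 took 29.1% in tumor 4, and 4.02% to 5.14% in tumors 1 to 3, against 13.5% to 16.7% in the oviducts. Twist1 had the largest share in tumor 1, 31.6%, and Prrx1 took 17.1% to 29.4% in the tumors and 19.8% to 25.7% in the oviducts. Tumor 4 was thus the only tumor with a Zeb2 share above the range of the oviducts, and the other 3 lay below it. Such shares move together, since they add up to the whole.

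The cadherins were described in the same way, over the 15 cadherin genes of a list of classical and related members. Cdh11 made up 28.5%, 38.8%, 56.1% and 15.6% of the summed level per kb in tumors 1 to 4, and 4.34% to 7.03% in the oviducts. Cdh1, the epithelial cadherin, made up 15.8%, 26.9%, 12.9% and 40.7% in the tumors and 63.6% to 74.4% in the oviducts. Neither range overlapped between the groups. Cdh5, the cadherin of endothelium, made up 16.4% to 32.2% in the tumors and 5.19% to 10.1% in the oviducts. Cdh2 was a minor cadherin in both, at 0.144% to 3.29% in the tumors and 0.754% to 2.11% in the oviducts. With the merged length of all exons in place of the longest transcript, an alternative chosen after seeing the data, Cdh11 averaged 28.3% in the tumors and 4.03% in the oviducts. Cdh1 then averaged 29.6% in the tumors and 73.4% in the oviducts. With the longest transcript the tumor means were 34.7% for Cdh11 and 24.1% for Cdh1. Which of these cadherins had the higher mean share in the tumors thus depended on the length used.

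**Figure D3:**
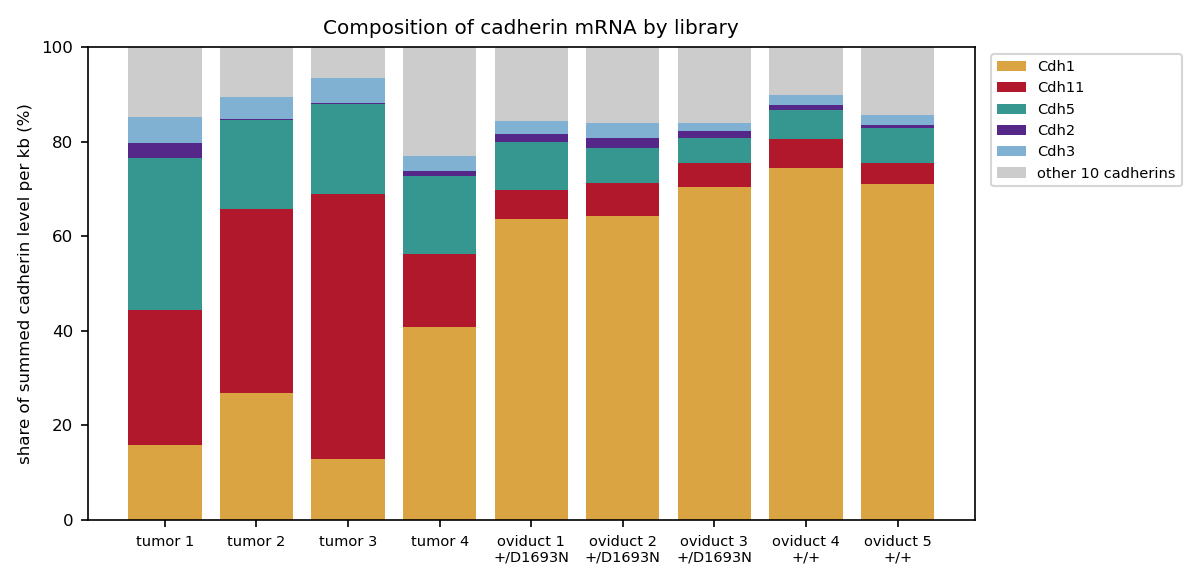
Share of each cadherin in the summed cadherin level per kb (%), one bar per library, with the 4 tumors on the left and the 5 oviducts on the right. Cdh1 (gold) fills 63.6% to 74.4% of each oviduct bar and 12.9% to 40.7% of each tumor bar, while Cdh11 (red) fills 15.6% to 56.1% in the tumors.

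By normalized count Cdh1 was at 1769.4, 2521.0, 1476.0 and 4114.1 in tumors 1 to 4, against 4378.9 to 5070.7 in the oviducts. Every tumor lay below every oviduct, as for 16.8% of all genes, tumor 4 by little. The change was -1.01 ± 0.26 (limma, adjusted p = 0.0142). This sat at the size required for a call: without tumor 1, tumor 3, oviduct 3 or oviduct 4 it was -0.89, -0.80, -1.0 and -0.97, short of it. Cdh1 was also not called against either oviduct genotype alone (adjusted p = 0.0503 against Dicer1+/D1693N and 0.0712 against Dicer1+/+). Of the 24 cadherins, catenins and nectins measured of 28 listed, 3 rose and 4 fell, with a median change of 0.06. These counts are 12.5% and 16.7% of the list, beside 6.53% and 12.1% of all genes called higher and lower. Besides Cdh1, the neural cadherin Cdh4 (-3.05 ± 0.35), Cdh22 (-3.95 ± 0.40) and the neural catenin Ctnna2 (-1.81 ± 0.33) fell. Those that rose were Cdh5 (2.15 ± 0.25), Cdh24 (1.76 ± 0.27) and the placental cadherin Cdh3 (1.5 ± 0.24). Ctnnb1, which links cadherins to the cytoskeleton as beta-catenin, had a change of 0.17 ± 0.15 (adjusted p = 0.424), and of -0.16 under quantile normalization.

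The tumors differed from each other more than the oviducts did: the SD of the log2 values was larger in the tumors for 9 of the 10 genes, all but Vim, as for 84.0% of all genes. Tumor 1 was the highest tumor for 5 of the genes (Snai1, Twist1, Prrx1, Cdh2 and Vim) and lay above every oviduct for all 10. Tumor 3 was the highest for 4 (Snai2, Twist2, Zeb1 and Cdh11) and the lowest for Vim. Tumor 2 was the highest for none and the lowest for Zeb2 and Cdh2. Tumor 4 was the lowest for 7 (Snai1, Snai2, Twist1, Twist2, Zeb1, Prrx1 and Cdh11), and for 4 of the 10 it lay within the range of the oviducts. How often each tumor took such places among all genes was not counted, so these ranks cannot be read as particular to the 10 genes. Against the oviduct mean, tumor 4 was at 0.29 for Snai2, 0.47 for Twist1, -0.31 for Twist2, -0.13 for Zeb1 and 0.25 for Prrx1 on the log2 scale, but at 1.47 for Snai1, 2.00 for Cdh11 and 1.59 for Zeb2.

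The other gene groups did not rank the tumors in the same order. The mean of 33 epithelial junction genes was 0.46 above the oviduct mean in tumor 4 on the log2 scale, and at -0.82, -0.16 and -0.89 relative to it in tumors 1, 2 and 3. Tumor 4, with the lowest levels of 7 of the 10 genes, was thus the tumor with the highest epithelial junction mean. Yet it also had the highest mean of 35 mesenchymal output genes, 2.09 above the oviduct mean, against 1.82, 1.49 and 1.10 in tumors 1 to 3. Fibroblast markers were 1.27, 0.83, 0.82 and 1.36 above the oviduct mean in tumors 1 to 4. Tumor 4 had a sum of 36324 over 6 fat cell genes, against 29 to 88 in the other tumors and 1223 to 11160 in the oviducts. The part of fat tissue, of epithelium or of macrophages in the levels of tumor 4 was not tested.

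**Figure D4:**
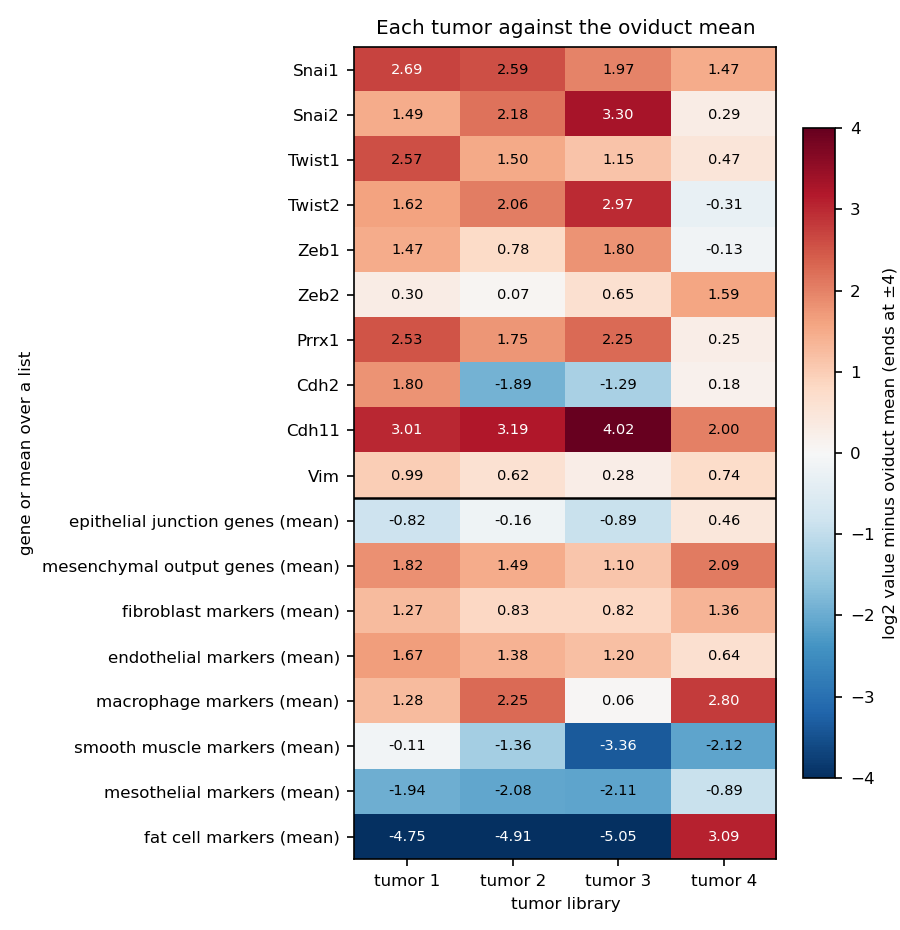
Log2 value of each of the 10 genes, and mean log2 value of 8 gene lists, in each tumor minus the mean of the 5 oviducts (red above, blue below, numbers as plotted). Tumor 4 is near 0 for Snai2, Twist2, Zeb1 and Prrx1 and the highest tumor for Zeb2. It is also the highest tumor for epithelial junction genes, mesenchymal output genes and fibroblast, macrophage, mesothelial and fat cell markers, but not for endothelial or smooth muscle markers.

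The counts for markers of other cell types stand beside 6.53% of all genes called higher and 12.1% called lower. All 13 of 13 ciliated cell genes fell, with a median change of -5.20. Of 10 endothelial genes 7 rose (70.0%), among them Pecam1 (1.44 ± 0.24, limma adjusted p = 0.00117). The summed count of the 10 was 13155, 9428, 8491 and 5984 in tumors 1 to 4 and 2725 to 4531 in the oviducts. Both Snai1 and Twist1 had the same order over the 4 tumors as the endothelial sum. The rest of the 10 genes, among them Snai2, Twist2, Prrx1 and Cdh11, did not. How many of all genes share this order was not counted. Of 8 mesothelial genes 6 fell, and of 10 smooth muscle genes 5. Of 11 fibroblast genes 5 rose (45.5%), among them Col1a1, Col1a2, Col3a1 and Pdgfra (1.77 ± 0.49, limma adjusted p = 0.0193, but 0.055 without tumor 1). No lymphocyte, fat cell or red cell gene was called. The sums of lymphocyte genes were 118 to 1306 in the tumors and 94 to 1282 in the oviducts. Of 7 skeletal muscle genes measured, 2 rose (28.6%), and 1 of 9 secretory genes rose (11.1%) and 2 fell (22.2%). The part of these cell types in the levels of the 10 genes was not tested.

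The wider EMT network was described by gene lists that were chosen with earlier results of these libraries known. Percentages after counts are shares of the genes measured, beside 6.53% of all genes called higher and 12.1% called lower. Of 18 related transcription factors measured of 21 listed, 7 rose (38.9%) and 0 fell, with a median change of 0.76. The largest rises were those of Tcf21, a mesoderm helix-loop-helix factor (2.51 ± 0.66), Id3 (2.17 ± 0.23) and Id1 (1.94 ± 0.29), which bind and block helix-loop-helix proteins, and Foxc2, a forkhead factor of mesenchyme (1.63 ± 0.25). Without tumor 4, 1 factor of this list fell. Of 15 factors that maintain epithelium, 3 rose and 3 fell. Foxa2 (-3.23 ± 0.35), a forkhead factor of gland epithelium, and Ehf (-1.63 ± 0.12), an epithelial ETS factor, fell, whereas Gata3 rose (1.82 ± 0.38). Esrp1, a splicing regulator of epithelial cells, and Grhl2, a grainyhead factor of epithelia, passed the p threshold but not the size, at -0.80 ± 0.23 and -0.83 ± 0.27 (adjusted p = 0.0254 and 0.0358). The count of epithelial factors that rose was 1 without tumor 1 or oviduct 4 and 5 without tumor 3, and the count that fell was 5 without tumor 4.

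Of 33 epithelial junction genes measured of 34 listed, 1 rose and 5 fell, and the median change was -0.38. These counts are 3.03% and 15.2% of the list, near the 6.53% and 12.1% of all genes called higher and lower. By the adjusted p alone, 1 of the 33 was higher and 12 were lower, beside 12.6% and 18.5% of all genes. Every tumor lay above every oviduct for 1 of the 33 and below for 10, beside 10.8% and 16.8% of all genes. The desmosome genes Dsp (-1.76 ± 0.27) and Pkp2 (-1.51 ± 0.27) fell, and the tight junction gene Cldn4 rose (2.07 ± 0.51). Epcam, a general epithelial adhesion gene, was at 1274.1, 2597.1, 1027.9 and 4357.0 normalized counts in tumors 1 to 4 and at 2190.1 to 3025.4 in the oviducts (change -0.38 ± 0.36, adjusted p = 0.464). The number of junction genes that fell was 2 without tumor 1 and 3 without tumor 3, oviduct 3 or oviduct 4.

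Of 35 mesenchymal output genes, 22 rose (62.9%) and 1 fell (2.86%), with a median change of 1.73. Among all genes 6.53% were called higher and 12.1% lower. The mesenchymal output genes that rose included Tnc, the matrix protein tenascin C (4.22 ± 0.36), Mmp2, a gelatinase (3.54 ± 0.27), and Lox, a collagen crosslinking enzyme (3.23 ± 0.31). Fn1, fibronectin, had a change of 0.71 ± 0.35 and was not called (adjusted p = 0.148). Spock1 was the gene that fell (-1.83 ± 0.51); the count that fell was 0 without tumor 2 and 2 without tumor 4. Of 10 intermediate filament and vimentin partner genes measured of 11 listed, 1 rose and 3 fell. Nes, nestin, rose (1.06 ± 0.16), and Synm, a muscle filament gene, fell (-3.82 ± 0.46). The rise of Nes was just under the size required without tumor 3 (0.98) or oviduct 3 (0.99).

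Beside 6.53% of all genes called higher and 12.1% lower, 5 of 22 EMT-inducing ligands, receptors and transducers rose (22.7%) and 0 fell. Their median change was 0.56. Those that rose included Tgfb2 (1.6 ± 0.21), Tgfb1 (1.49 ± 0.19) and Fgf2 (1.51 ± 0.28), with limma adjusted p of 0.000265, 0.000256 and 0.00258. Tgfbr1, a receptor of the TGF-beta ligands, averaged 1804 ± 554 normalized counts in the tumors and 734 ± 139 in the oviducts (SD, n = 4 and 5; limma, adjusted p = 0.00121). In the same list 1 gene fell without tumor 3, tumor 4 or oviduct 5.

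**Figure D5:**
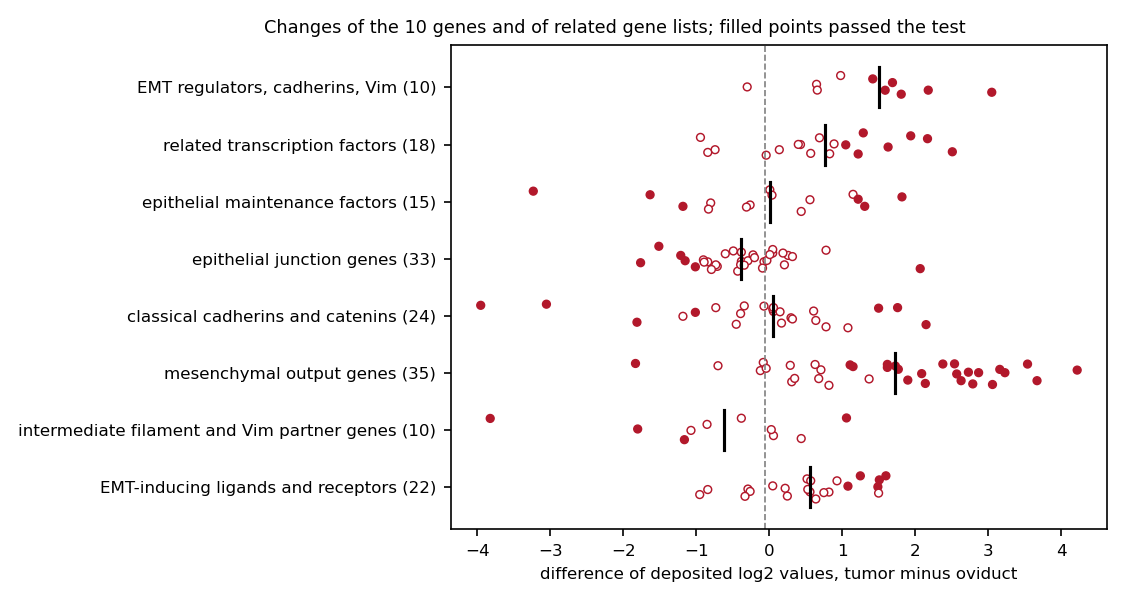
Log2 change (tumor minus oviduct) of each gene in the 10-gene set and in 7 related lists, with filled points for called genes, thick bars for list medians and a dashed line at the median of all genes, -0.05. The numbers of genes measured are in brackets, and points are spread vertically only to separate them.

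The genes whose log2 values followed each of the 10 most closely were taken from genes in the upper part of the table by mean level, by Pearson's r over the 9 libraries. As tumors and oviducts are pooled in it, r reflects the group difference as well as variation within groups, and it is given as a description. Cdh11 was followed most closely by Nrep (r = 0.994), Col27a1 (0.988) and Sulf1 (0.987). For Prrx1 the closest were Abcg2 (0.992) and Peg3 (0.987), for Snai1 Pecam1 (0.984), for Snai2 Kdelc1 (0.986) and for Twist2 Mex3b (0.967). For Zeb1 it was Nt5c3b (0.987), for Twist1 Naca (0.986), for Vim Thap4 (0.975), for Cdh2 2310035C23Rik (0.964) and for Zeb2 Ube2q2 (0.954). None of the 10 appeared among the 3 closest genes of another.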

How the data were processed

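Total RNA came from a miRNeasy kit, and mRNA was isolated on oligo-T beads, reverse transcribed with random hexamers and sequenced as paired Illumina reads, per the labels' protocols. FastQC 0.11.5, STAR 2.5.3a and HTSeq with GRCm38 (mm10) are named in the submitters' processing notes; strandedness and transformation are not given in the sources used here. The authors deposited 1 table of log2 values for 19435 genes in 9 libraries, with a floor of 3.427. Undoing a variance-stabilizing transformation gave whole reads for 100.0% of values within 0.05 reads, and each gene had at least 10 reads in all. Differences on this log2 scale understate the change of genes with few reads.

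Tumors were compared with all oviducts in a 2-group model, and with each genotype in a 3-group model, by limma 3.58.1 in R 4.3.3 on the deposited log2 values (trend in the prior variance, two-sided, tested on simulated data). Alternatives were quantile normalization, log2 of normalized count plus 1, limma-voom on recovered reads, removal of the lowest 0.25 of genes by mean, array weights, robust empirical Bayes, 1 oviduct genotype, a replicate block, adjusted p alone and leaving out each library. UTRs and positions are from GENCODE M21; UTRs had at least 50 bases, and similar length means 0.8 to 1.25 times. The 10 genes, the gene lists and the tests were chosen with earlier results of these data known. Named genes were the 10, up to 4 called genes per list and direction by size of change, and a fixed set that includes Cdh1, Epcam, Fn1 and Pecam1; Dicer1 and the overlapping antisense genes were added. A gene and a sequence that fell under these rules are not reported here. Reads carried no molecular identifiers, so depth speaks for counting error only.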

Additional observations from a re-analysis of the deposited data

Results flagged for a closer look

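Twist2 in Dicer1+/+ oviduct 5 lay apart from the other oviducts, at 131.7 normalized counts against 57.7 to 73.7. Its gap to the nearest oviduct was 0.719 of the range of the 5 oviducts on the log2 scale, above Dixon's 95% critical value of 0.71. Of 20 groups tested, 2 for each of the 10 genes, this was the 1 that passed, and chance alone passes about 1 in 20.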

How the results depend on the processing

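Snai1 and Cdh11 were called and Zeb2 and Vim not called in all 19 alternatives, although the adjusted p alone passed 0.05 for Zeb2 without tumor 2 and for Vim without oviduct 4 or tumor 3 or with Dicer1+/D1693N controls. Snai2 was not called against either oviduct genotype alone, nor Twist1 and Prrx1 against the Dicer1+/+ oviducts alone; Twist2 lost its call in 13 of 19 and Zeb1 gained one without tumor 4. Under quantile normalization the median over all genes shifted to 0.078 (main -0.048). Reversed values, none called, were Cdh2 (0.20 with Dicer1+/+ controls; -1.0 to 0.23 leaving out 1 library), Ctnnb1 (-0.16, quantile), Prrx2 (-0.41 with Dicer1+/+ controls; -0.05 to 0.48 leaving out 1 library), Dicer1 (-0.39 to 0.02) and Gm10125 (-0.00 to 0.36); the cause was not tested.

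Counts that moved by over 1.5 times were as follows; fewer controls were used where 1 genotype served as control. With Dicer1+/+ controls, 2 of the 10 genes, 2 related factors, 0 epithelial factors, 12 mesenchymal genes, 0 filament genes and 3 EMT ligands rose, and 0 junction genes, 2 cadherins, 0 mesenchymal genes and 1 filament gene fell. With Dicer1+/D1693N controls, 4 related factors, 1 epithelial factor and 0 junction genes rose, and 2 junction genes, 0 mesenchymal genes, 1 filament gene and 1 EMT ligand fell. Array weights gave 0 filament genes higher, 3 junction genes lower and 1 EMT ligand lower, and quantile normalization 1 EMT ligand lower. By adjusted p alone 5 epithelial factors, 12 junction genes and 2 EMT ligands fell. Leaving out 1 library gave 5 to 7 of the 10 genes higher, 1 to 5 epithelial factors higher and 2 to 5 lower, 2 to 7 junction genes lower, 0 to 2 mesenchymal genes lower, 0 to 1 filament genes higher, and 0 to 1 EMT ligands and related factors lower. Same-numbered tumors and oviducts deviated together no more than other pairs did (r = 0.117, 0.061, -0.089 and 0.006, against -0.146 to 0.139). With 4 such pairs of unlike tissue, this check cannot exclude a shared animal or batch. With a replicate block 5 of the 10 genes rose, or 7 in place of 4 against Dicer1+/D1693N oviducts, 1 epithelial factor and 0 junction genes rose, 0 mesenchymal genes fell and 1 EMT ligand fell. Depth limits Cdh2 in tumors 2 and 3, with 13 and 27 reads, and Snai1 in the oviducts, with 20 to 59.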
